A study of Mus musculus with 22 samples.

Results

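The comparison described here is colon against ileum in old control mice, read from 6 of the 22 arrays of the series: 3 colon and 3 ileum samples, chosen by tissue, genotype and age and by no measured value. All 6 came from male C57BL/6 mice on chow, 24 months old, with no special treatment, of the genotype labelled Flox control. The series also holds a genotype labelled SIRT1 iKO, of the same strain, sex, diet and age, with 4 colon and 4 ileum arrays, and flox ileum from mice of 6 to 8 weeks on 4 arrays. Those 12 arrays are used below only beside the flox comparison. The floxed allele, the driver of the knockout and the expansion of iKO are not given in the sources used here. The replicates are numbered 1, 3 and 4 in both tissues, and nothing in the labels says that they are separate mice or that an ileum and a colon share a mouse, so the p-values measure the spread between these samples.

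The ileum is the last stretch of the small intestine. It finishes nutrient absorption, takes back bile acids through dedicated transporters, and carries Paneth cells, crypt cells that secrete antimicrobial peptides. The colon has no villi and normally few or no Paneth cells; its epithelium recovers water and salt, takes up short-chain fatty acids made by bacteria and maintains a thick mucus layer. The regional identity of both is set during development by transcription factors such as the GATA, CDX and HOX families, and much of it is kept in the adult.

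Each array measured 1 sample in 1 colour. A value below is the log2 processed signal of a gene's brightest probe minus the log2 of the 75th percentile of signals on that array, so 0 is the 75th percentile, and differences are colon minus ileum on that log2 scale. Levels of different genes are not compared, since probes differ. The scanner software called 55.63 to 60.22% of probes well above background on the ileum arrays and 70.45 to 79.66% on the colon arrays, and the dimmest probe so called had a signal of 48.1 to 71.0 on ileum arrays and 18.4 to 25.5 on colon arrays. The ileum arrays lie on slides 1 to 4 of the series and the colon arrays on slides 5 to 8, so tissue and array run cannot be told apart. The 7 spike-in probes that were well above background on every 24-month array, which read RNA added at fixed amounts, differed between tissues by -0.07 to -0.21 after scaling. Arrays correlated across genes at r = 0.984 to 0.989 within colon, 0.979 to 0.986 within ileum and 0.93 to 0.955 between the tissues.

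Ileum flox replicate 1 stood apart from the other ileum arrays. Car1, a carbonic anhydrase abundant in proximal colon, measured 8.18 on it, -3.0 and -2.52 on ileum replicates 3 and 4, and 8.43, 8.75 and 8.43 on the colon arrays, 2 of which were saturated for this probe. Aqp8, a water channel of surface colonocytes, measured 6.55 on the same array, -4.41 and -2.09 on the other ileum arrays, and 7.03, 8.09 and 6.73 in colon. Both genes were thus near their colon level on 1 ileum array and far below it on the others. Some other genes high in colon followed on this array: Cyp2d34 read 1.80 against -3.91 and -3.13, Slc37a2 1.67 against -4.17 and -3.29, and Sult1a1 4.25 against 0.53 and 1.24. Others did not: Hoxb13 was -6.38 on it, Best2, of colonic goblet cells, -1.60 and Insl5, of colonic hormone cells, -2.13, all far below colon. HOX genes were split on this array. Hoxa7 read 1.55 on it against -0.22 and 0.07, and Hoxa11 -3.38 against -6.87 and -6.30. Hoxa13 read -6.25 against -4.91 and -6.29, and Hoxd13 -6.30 against -6.86 and -3.70. Fabp6, an ileal bile acid carrier, was 3.19 on it against 3.76 and 3.43. Among 14917 genes well above background on all 6 arrays, this array lay over 1.5 log2 units above both other ileum arrays for 85 genes, 59 of them with a higher mean in colon, and as far below both for 40 genes, 37 of them lower in colon. The other 5 arrays lay that far above their group for 16 to 66 genes and below for 1 to 30. Whether colon RNA, a different stretch of gut or something else is behind this was not tested. Results that depend on the array are given with and without it.

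**Figure D1:**
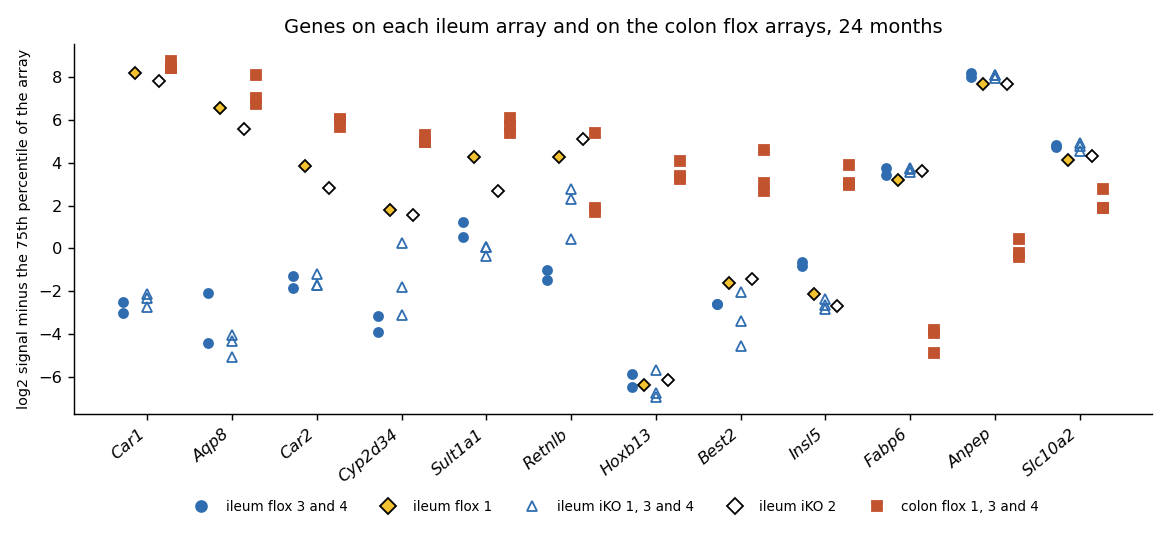
Log2 signal minus the 75th percentile of the array (vertical axis) for 12 genes (horizontal axis) on each 24-month ileum array and on the 3 colon flox arrays; each marker is 1 array. Ileum flox 1 and ileum iKO 2 reach 8.18 and 7.79 for Car1, near the colon arrays, while both stay near the other ileum arrays for Hoxb13, Fabp6 and Anpep.

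Colon and ileum differed widely. Of 19018 genes tested, limma called 3892 higher in colon (20.5%) and 2656 lower (14%) at an adjusted p under 0.05, and 1559 and 1138 of these by at least 1 log2 unit. The median difference over all genes was 0.09. Without ileum replicate 1 the counts were 3429 and 2567; 3144 of the higher and 2310 of the lower calls were kept, 285 and 257 were gained, and no gene was called in the opposite direction. The excess of higher over lower calls depended on probes near background: among the 14917 genes well above background on all 6 arrays, 2650 were higher and 2540 lower, whereas of 2414 genes well above background on no ileum array 954 were higher and 4 lower. The lowest signal called well above background was lower on the colon arrays than on the ileum arrays. With every value raised to a common floor, an alternative added after the data were seen, 3209 genes were higher and 2647 lower. Higher genes made up 59.4% of the calls, 72.7% with centring on the spike-ins and 45.9% after normexp background correction. Very large differences leaned the other way, with 351 genes higher and 479 lower by at least 2 log2 units. Counts of list members below are to be read against 20.5% higher and 14% lower over all genes tested. Sirt1, the deacetylase that the study deletes in its other genotype, read 0.80, 0.80 and 0.76 in colon and 0.58, 1.09 and 0.78 in ileum, overlapping groups with a difference of -0.03 ± 0.12 (SE; n = 3 arrays per tissue here and throughout; adjusted p = 0.866).

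**Figure D2:**
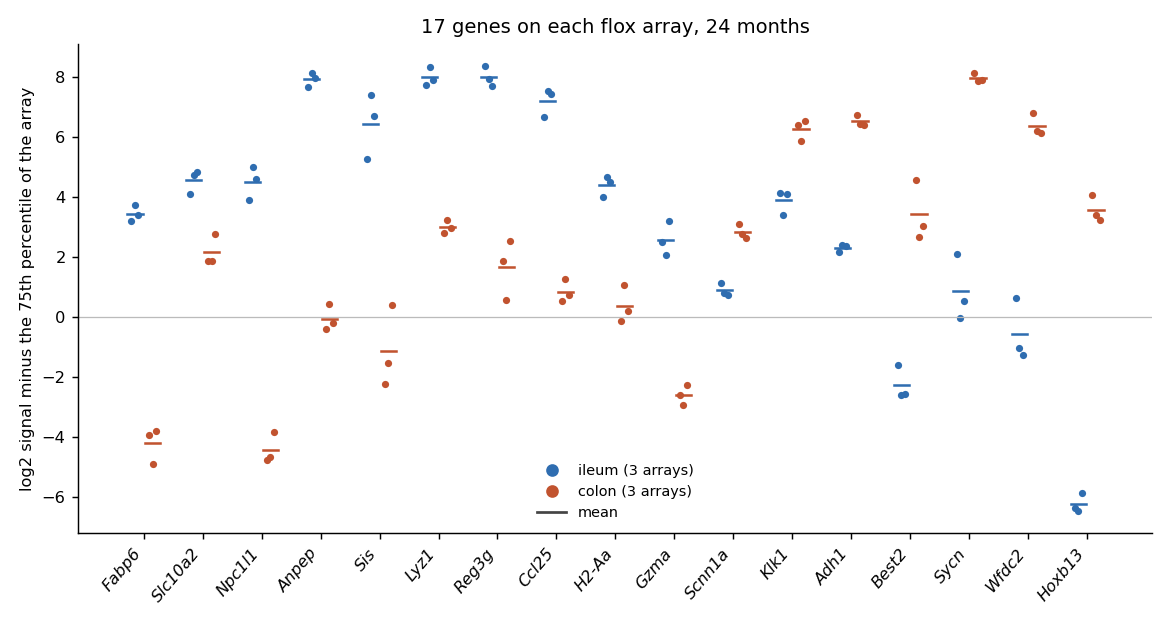
Log2 signal minus the 75th percentile of the array (vertical axis) for 17 genes described in the text; points are single arrays, 3 per tissue, and bars their means. In each of the 17 genes the 3 colon points and the 3 ileum points do not overlap, and Hoxb13 is the only gene of these whose ileum arrays were all not well above background.

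Bile acid handling separated the tissues. Of 15 tested genes of bile acid transport and FXR signalling, 9 were lower in colon and 4 higher, with a median of -1.23. Fabp6, the cytosolic bile acid carrier of ileal enterocytes, measured 3.19, 3.76 and 3.43 in ileum and -3.93, -4.88 and -3.79 in colon, a difference of -7.66 ± 0.38 or 202-fold (adjusted p = 1.17e-07). Slc10a2, the apical sodium-dependent bile acid transporter, read 4.12, 4.74 and 4.84 in ileum and 1.88, 1.89 and 2.77 in colon. Its signal stayed well above background on every colon array, and the difference was -2.39 ± 0.51 (adjusted p = 0.00403). The basolateral exporter subunits Slc51a and Slc51b were lower in colon, by differences of -3.06 ± 0.42 and -3.10 ± 0.27. Nr1h4, the bile acid receptor FXR, differed by -1.23 ± 0.16. Its target Fgf15, the enterokine that represses hepatic bile acid synthesis, read -1.26, -0.92 and -0.90 in ileum and -6.23, -6.50 and -4.68 in colon, where 2 of 3 arrays were well above background (difference -4.78 ± 0.82, adjusted p = 0.00103). Abcc2, an apical export pump, was lower by -3.63 ± 0.74 and by -4.53 without ileum replicate 1. Abcc3, a basolateral export pump, ran the other way, at 3.79 to 4.19 in colon and 2.19 to 3.28 in ileum (difference 1.29 ± 0.24).

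Fat absorption and lipoprotein assembly were among the most one-sided lists, with 22 of 27 tested genes lower in colon, 1 higher and a median of -2.19. Npc1l1, the apical cholesterol importer, measured 3.93, 5.02 and 4.61 in ileum and -4.75, -4.66 and -3.82 in colon, a 489-fold difference (-8.93 ± 0.40, adjusted p = 4.5e-08). Apoa1, the main protein of HDL, was the steepest of the list at -12.54 ± 0.53, with ileum at 5.44 to 7.17 and colon at -6.36 to -5.44, where 1 colon array was well above background. Mttp, which loads lipid onto apolipoprotein B, differed by -7.45 ± 0.24, and Soat2, the cholesterol esterifying enzyme of enterocytes, by -6.05 ± 0.30. Apoa4 differed by -5.80 ± 0.52, Mogat2, an enzyme of triglyceride resynthesis, by -4.79 ± 0.33, Abcg5, a subunit of a sterol efflux pump, by -3.25 ± 0.39, and Apob itself by only -2.19 ± 0.27. The fatty acid binding proteins parted: Fabp1 differed by -3.48 ± 0.47 and Fabp2 by -1.35 ± 0.26, the latter reading 6.73 to 7.83 in colon. Scarb1, a lipoprotein receptor, was the exception with 0.23, 0.39 and 0.01 in colon against -0.42, -1.53 and -1.42 in ileum (1.33 ± 0.23). Apobec1, the enzyme that edits Apob RNA, did not pass the test (0.24 ± 0.23, adjusted p = 0.455).

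Brush border digestion and nutrient transport showed the same shape: 33 of 39 tested genes were lower in colon and 2 higher, with a median of -2.79. Anpep, the aminopeptidase N of the microvillus, measured 7.69, 8.16 and 7.99 in ileum and -0.39, 0.45 and -0.20 in colon, a 255-fold difference (-7.99 ± 0.20, adjusted p = 3.79e-10). Pdzk1, a scaffold that holds transporters at the apical membrane, differed by -8.86 ± 0.72, and by -9.73 without ileum replicate 1, which read 2.55 against 5.35 and 5.0. Of the disaccharidases, Sis (sucrase-isomaltase) read 5.27, 7.40 and 6.72 in ileum and -2.23, -1.54 and 0.41 in colon (-7.58 ± 0.79), Treh (trehalase) differed by -7.48 ± 0.63, and Mgam (maltase-glucoamylase) by -2.79 ± 0.24. Without ileum replicate 1 the differences of Sis and Treh were -8.18 and -8.25. Slc6a19, the neutral amino acid transporter, differed by -8.96 ± 0.27 and was well above background on 2 colon arrays. Cubn and Amn, the receptor pair that takes up vitamin B12 with intrinsic factor in ileum, differed by -6.66 ± 0.61 and -3.48 ± 0.52, and Cubn by -7.38 without ileum replicate 1. The cystine transporter pair Slc7a9 and Slc3a1 differed by -5.71 ± 0.33 and -3.19 ± 0.30. Dpp4 differed by -4.08 ± 0.26, the glucose transporter Slc5a1 by -2.25 ± 0.23, and Vil1, the microvillar actin bundler, by -1.49 ± 0.15. Slc36a1, a proton-coupled amino acid transporter, was higher in colon (1.98 ± 0.18), as was the folate transporter Slc46a1 (1.28 ± 0.34). Slc15a1, the peptide transporter, overlapped between tissues because ileum replicate 1 read -1.5 against 0.65 and -0.26; the difference was -1.27 ± 0.59 (adjusted p = 0.118), and -1.83 without that array (adjusted p = 0.0325).

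Start regions of 4 genes of ileal epithelium that were much lower in colon are shown because they hold short motifs of factors known to act in intestinal epithelium. They are the 250 bases before the annotated start, 5′ to 3′ on the gene's own strand, from RefSeq on GRCm38.p6: Treh at chr9:44672983-44673232 (+), Slc3a1 at chr17:85028097-85028346 (+), Alpi, intestinal alkaline phosphatase, at chr1:87101607-87101856 (-) and Lgals2, a galectin, at chr15:78855530-78855779 (-). Capitals mark CAAAGTCCA, a motif of HNF4A, or its reverse complement. They also mark AGATAA, a motif of GATA factors. In Lgals2 they further mark the reverse complement of CCATAAA, a motif of CDX2. The difference of Alpi was -3.32 ± 0.52 and that of Lgals2 was -7.65 ± 0.23, with Lgals2 at 7.85 to 8.13 in ileum and -0.01 to 0.56 in colon.
Treh: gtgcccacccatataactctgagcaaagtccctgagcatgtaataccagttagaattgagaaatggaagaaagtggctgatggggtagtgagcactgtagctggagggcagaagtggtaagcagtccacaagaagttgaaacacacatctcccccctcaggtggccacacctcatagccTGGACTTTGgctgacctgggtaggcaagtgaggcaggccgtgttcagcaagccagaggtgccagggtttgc
Slc3a1: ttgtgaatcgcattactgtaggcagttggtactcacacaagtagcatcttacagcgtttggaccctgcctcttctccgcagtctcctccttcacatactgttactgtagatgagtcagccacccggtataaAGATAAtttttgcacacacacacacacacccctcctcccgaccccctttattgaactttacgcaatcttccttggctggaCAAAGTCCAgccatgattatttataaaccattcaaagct
Alpi: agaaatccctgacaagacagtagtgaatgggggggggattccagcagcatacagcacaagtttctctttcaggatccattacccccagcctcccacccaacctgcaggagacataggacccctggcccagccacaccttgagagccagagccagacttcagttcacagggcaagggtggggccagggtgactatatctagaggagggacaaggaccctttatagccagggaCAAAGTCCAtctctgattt
Lgals2: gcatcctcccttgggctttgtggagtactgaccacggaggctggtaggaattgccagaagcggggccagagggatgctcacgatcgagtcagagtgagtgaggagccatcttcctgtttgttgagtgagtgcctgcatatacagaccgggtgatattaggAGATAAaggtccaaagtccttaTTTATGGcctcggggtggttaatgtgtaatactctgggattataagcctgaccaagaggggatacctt
The HNF4A letters lie 71 to 63 bases before the start in Treh, 39 to 31 in Slc3a1 and 19 to 11 in Alpi. Over windows of 250 bases before to 50 after the start, searched on both strands, CAAAGTCCA was in 1.16% of the 1809 genes lower in colon that matched a RefSeq window, 0.415% of 2411 higher genes, 0.625% of 12168 tested genes and 0.555% of 27025 RefSeq genes. Among the 270 matched genes lower by at least 2 log2 units, a limit chosen after the data were seen, 10 held it (3.7%): Alpi, Cyp3a41a, Nat8, Pdzk1, Pilrb1, Pipox, Ptpn22, Slc3a1, Treh and Wnt3. AGATAA was in 9.18% of lower, 8.3% of higher and 8.76% of tested genes, and CCATAAA in 2.27%, 2.53% and 2.49%. Past 2 log2 units AGATAA was in 14.8% of lower (40 of 270) and 11.9% of higher genes, and CCATAAA in 2.96% and 4.29%. CCAATAAA, a motif of HOX13 factors that shares its last letters with that of CDX2, was in 0.884%, 0.664% and 0.962%, and past that limit in 1.48% of lower and 1.43% of higher genes. These shares are descriptions without a test, and a match is not a bound site.

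Paneth cell markers had the lowest median of the lists. Of 16 tested Paneth markers 13 were lower in colon and 2 higher, with a median of -6.41. Defa29, an alpha-defensin, measured 8.43, 8.73 and 8.24 in ileum and -5.33, -4.93 and -4.60 in colon, a difference of -13.42 ± 0.35 (adjusted p = 3.79e-10). Defa20 was at least 5420-fold higher in ileum, where its probe was saturated on all 3 arrays, and Defa22 at least 9773-fold, since it was not well above background on any colon array. Alpha-defensin genes are near-identical copies, and their probes may read several members. Outside that family, Lyz1, the lysozyme of Paneth granules, read 7.75, 8.36 and 7.91 in ileum and 2.80, 3.23 and 2.99 in colon (-5.0 ± 0.20), Mmp7, the protease that matures the defensins, differed by -6.77 ± 0.54, Itln1, an intelectin, by -8.90 ± 1.17, and Pla2g2a by -4.40 ± 0.41. The 2 higher genes were Mptx1, a mucosal pentraxin, at 7.23 to 7.60 in colon and 4.41 to 5.88 in ileum (2.08 ± 0.32), and Sox9, a crypt factor also found outside Paneth cells (1.03 ± 0.15).

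Reg lectins, a secreted family, split by member: 3 of 6 tested were lower in colon and none higher, with a median of -4.02. Reg3g, which keeps Gram-positive bacteria off the small intestinal surface, read 8.37, 7.94 and 7.71 in ileum and 1.88, 0.58 and 2.55 in colon (-6.33 ± 1.31, adjusted p = 0.00314). Reg3a, well above background on 2 colon arrays, differed by -8.93 ± 1.23, and by -9.55 without ileum replicate 1. Reg3b differed by -4.78 ± 1.37 (adjusted p = 0.0184), a call lost without colon replicate 3 (adjusted p = 0.0634). Reg4 overlapped, at 2.86 to 5.96 in colon and 3.43 to 5.34 in ileum (-0.01 ± 0.85, adjusted p = 0.991), and Reg1 did not pass (-3.25 ± 1.4, adjusted p = 0.0916). Of 24 tested epithelial defence genes 4 were higher and 5 lower, but the higher count ran from 1 to 8 when 1 flox array was left out, with 8 without ileum replicate 1, so no direction is given for them. Lyz2, the lysozyme of macrophages and other cells, was lower in colon (-2.11 ± 0.16). Pigr, the receptor that carries IgA into the lumen, read 5.36 to 5.77 in colon and 5.55 to 5.93 in ileum (adjusted p = 0.475).

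The colon's salt and water machinery was higher there, with 17 of 33 tested ion and water transport genes higher, 3 lower and a median of 0.75. Scnn1a, the alpha subunit of the epithelial sodium channel, measured 3.12, 2.79 and 2.66 in colon and 1.16, 0.80 and 0.74 in ileum (1.96 ± 0.16, adjusted p = 6.37e-06). Its beta subunit Scnn1b read -1.09, -3.29 and -2.01 in colon and was not well above background on any ileum array, at least 4.5-fold higher in colon. Atp12a, the colonic proton-potassium pump, read 2.81, 1.95 and 1.81 in colon and -4.43, -5.59 and -2.28 in ileum, where 1 array was well above background (6.29 ± 0.77). Fxyd4, an aldosterone-induced regulator of the sodium pump, was at least 186-fold higher, with ileum not well above background. The mineralocorticoid receptor Nr3c2 and Hsd11b2, the enzyme that shields it from glucocorticoids, were higher by 1.36 ± 0.23 and 2.02 ± 0.46. The Nr3c2 probe was well above background on 1 ileum array. Best2, an anion channel of colonic goblet cells, read 4.59, 2.69 and 3.03 in colon and -1.60, -2.59 and -2.57 in ileum (5.69 ± 0.80). Of the chloride and proton exchangers, Slc26a3 was higher by 2.09 ± 0.45 and Slc9a3 by 2.69 ± 0.58, while Slc26a6 was lower, at -2.71 to -2.53 in colon against 3.30 to 4.51 in ileum (-6.52 ± 0.30). Guanylin (Guca2a) was slightly higher in colon (0.52 ± 0.13) and uroguanylin (Guca2b) lower (-3.56 ± 0.46, and -4.17 without ileum replicate 1), and Clca4a was lower (-3.90 ± 0.44). Cftr, the secretory chloride channel, and Sgk1, an aldosterone-responsive kinase, did not pass the test (-0.14 ± 0.20, adjusted p = 0.619, and -0.40 ± 0.48, adjusted p = 0.552).

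Car1 and Aqp8, the genes that set ileum replicate 1 apart, were not called: 7.65 ± 2.96 (adjusted p = 0.0644) and 7.27 ± 2.83 (adjusted p = 0.0657). Without that array they differed by 11.29 (adjusted p = 0.00532) and 10.53 (adjusted p = 0.00815). Car2 was called either way, at 5.98, 6.04 and 5.67 in colon and 3.84, -1.84 and -1.27 in ileum (5.65 ± 1.38, and 7.45 without the array). Retnlb, a goblet cell product, moved from 2.40 ± 1.61 (adjusted p = 0.271) to 4.24 (adjusted p = 0.0419), and Cyp2c55 from 3.07 ± 1.19 (adjusted p = 0.0637) to 3.90 (adjusted p = 0.0371). Car4 and Aqp4 were higher in colon by 1.84 ± 0.27 and 2.11 ± 0.42.

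Genes that handle short-chain fatty acids and other fermentation products were higher in colon for 10 of 15 tested and lower for 2, with a median of 0.87. Slc16a1, a monocarboxylate transporter, read 4.21, 5.11 and 4.19 in colon and 3.74, 2.71 and 2.89 in ileum (1.39 ± 0.33). The sulfide-oxidising enzymes Ethe1 and Tst were higher by 2.41 ± 0.47 and 1.25 ± 0.19, whereas Suox, sulfite oxidase, was lower, at 2.79 to 3.26 in colon and 6.72 to 7.07 in ileum (-3.92 ± 0.24). Slc16a3 was lower too (-2.42 ± 0.35). Slc5a8, the sodium-coupled carrier of short-chain fatty acids, overlapped at 3.54 to 3.92 and 3.15 to 4.02 (0.05 ± 0.26, adjusted p = 0.896).

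The order of HOX genes along each cluster follows their domains along the body axis. Most HOX genes called higher in colon were posterior, but most posterior genes entered the test through the colon arrays alone. Of 12 tested posterior HOX genes (numbers 9 to 13) 8 were higher in colon and 1 lower, with a median of 3.32. Without ileum replicate 1, 9 were higher. Of 12 anterior genes (numbers 1 to 5) 2 were higher and none lower, or 4 higher without colon replicate 1 or ileum replicate 1 and with centring on spike-ins. Hoxb13 read 4.06, 3.40 and 3.24 in colon and was not well above background on any ileum array, at least 234-fold higher in colon (adjusted p = 6.91e-08). Hoxd13 read 1.55, 1.26 and 1.07 in colon and -6.30, -6.86 and -3.70 in ileum, where 1 array was well above background (6.92 ± 1.34). Hoxa10, Hoxd10, Hoxa13 and Hoxd11 were at least 15.4-, 9.54-, 3.30- and 2.11-fold higher, and Hoxa11 differed by 4.86 ± 0.81, with 1 ileum array, replicate 1, well above background, so the size of this difference is uncertain (3.21 under the common floor). Hoxa9, Hoxa7 and Hoxa5 were higher by 2.72 ± 0.29, 2.62 ± 0.41 and 1.82 ± 0.26, with Hoxa5 well above background on 2 ileum arrays. In the C cluster, Hoxc6 and Hoxc9 were lower in colon and the other 2 tested genes, Hoxc4 and Hoxc5, were not called. Hoxc9 measured -0.19, -0.87 and -0.08 in ileum and -4.84, -5.04 and -4.63 in colon (-4.46 ± 0.38), and Hoxc6 differed by -2.69 ± 0.33. Hoxb6 did not pass the test (-0.46 ± 0.25, adjusted p = 0.178), although its colon arrays, at 2.77 to 3.14, all lay below its ileum arrays, at 3.23 to 3.43. The posterior gene Hoxb9 overlapped (0.08 ± 0.20, adjusted p = 0.786). Hoxa10, Hoxa13, Hoxb13, Hoxc5, Hoxd10, Hoxd11 and Hoxd12 were among the HOX genes well above background on no ileum array. The median of the posterior genes was positive under each alternative but as low as 0.08 when only genes well above background on all 6 arrays, 3 of the 12, were kept. Of those, Hoxa9 was higher, Hoxc9 lower and Hoxb9 not called. The other posterior genes, with the rest of the higher calls, entered the test through the colon arrays alone.

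**Figure D3:**
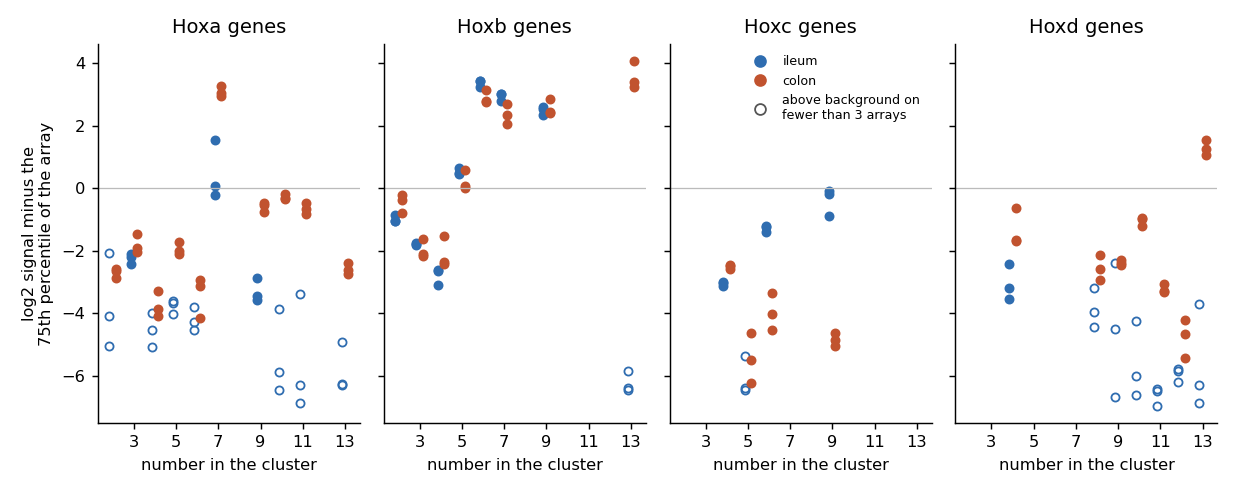
Log2 signal minus the 75th percentile of the array (vertical axis) for the tested HOX genes from number 2 on, by number in each cluster (horizontal axis); each point is 1 array, filled where all 3 arrays of that tissue read the probe well above background. Colon points lie above ileum points for Hoxa9 to Hoxa13, Hoxd10, Hoxd11, Hoxd13 and Hoxb13, whereas Hoxc6 and Hoxc9 are lower in colon.

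Among 29 tested regional and epithelial transcription factors 8 were higher and 8 lower, or 5 higher without colon replicate 1 or ileum replicate 4, and their median of -0.09 turned positive after quantile normalization or centring on spike-ins. Gata5, a zinc finger factor of gut endoderm, read 0.37, 0.75 and 0.74 in ileum and -5.03, -7.29 and -4.76 in colon (-6.31 ± 0.49). Its probe was well above background on 2 colon arrays. Onecut2, Hnf4g and Pitx1 were lower in colon by differences of -2.77 ± 0.32, -2.52 ± 0.23 and -1.46 ± 0.25, as was Prdm1 (-1.45 ± 0.22). Foxa1 and Foxa2 were higher (1.16 ± 0.17 and 1.76 ± 0.21). Hnf4a read 3.05 to 3.64 in colon and 3.49 to 3.68 in ileum, overlapping (-0.16 ± 0.13, adjusted p = 0.369), and so did Cdx2 (0.20 ± 0.15, adjusted p = 0.329). Cdx1 was higher by 0.51 ± 0.14 (adjusted p = 0.0162), a call lost without colon replicate 1 or ileum replicate 4 (adjusted p up to 0.0583).

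Goblet cell genes were more often higher than lower in colon, 11 against 3 of 29 tested, with a median of 0.54 (1 lower with centring on spike-ins), but the abundant secreted products disagreed. Muc2, the gel-forming mucin, read 7.63, 6.62 and 7.66 in colon and 6.33, 6.12 and 6.29 in ileum (1.06 ± 0.25, adjusted p = 0.0064), and Klk1, a kallikrein, was higher by 2.38 ± 0.25. Wfdc2, a protease inhibitor listed with them, read 6.81, 6.21 and 6.13 in colon and 0.64, -1.03 and -1.24 in ileum, a 122-fold difference (6.93 ± 0.60, and 7.52 without ileum replicate 1). Tff3, Zg16 and the membrane mucin Muc13 were lower in colon (-0.97 ± 0.13, -0.53 ± 0.12 and -0.69 ± 0.17); Zg16 was saturated on 1 array of each tissue. Clca1 and Agr2 did not pass (adjusted p = 0.179 and 0.158). Enzymes that build mucin sugar chains were higher in colon for 13 of 23 tested and lower for 2 (1 without colon replicate 1), with a median of 0.71. St3gal6 and St6gal1, sialyltransferases, were higher by 3.17 ± 0.32 and 1.66 ± 0.37, and the core enzymes C1galt1 and Gcnt3 by 1.08 ± 0.16 and 1.60 ± 0.24. Fut2, which adds the terminal fucose of H antigens, read 0.35, -0.15 and 0.25 in colon and -1.42, -4.57 and -4.22 in ileum (3.56 ± 0.81, and 4.55 without ileum replicate 1). Its probe was well above background on 2 ileum arrays. B3galt5 and St6galnac6, members of the same list, were higher by 5.84 ± 1.11 and 4.68 ± 0.82, or 7.30 and 5.71 without ileum replicate 1. St3gal4 was lower (-2.59 ± 0.34).

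The other epithelial lineages showed gene-by-gene differences. Of 13 tested enteroendocrine hormones 3 were higher and 4 lower in colon. Insl5, the hormone of distal colonic L cells, measured 3.87, 2.95 and 3.04 in colon and -2.13, -0.65 and -0.82 in ileum (4.49 ± 0.45, adjusted p = 2.92e-05), and Tph1, the enzyme of serotonin synthesis, was higher by 1.59 ± 0.37. Nts (neurotensin) and Sct (secretin) were lower (-2.35 ± 0.45 and -1.20 ± 0.27), and Pyy overlapped (adjusted p = 0.309). Chga, a granule protein, was higher (1.05 ± 0.27), with 7 of 21 enteroendocrine factors and granule proteins, a count that fell to 2 without colon replicate 4. Tuft cell markers gave 3 higher and 7 lower of 21, and 1 higher without colon replicate 4, ileum replicate 1 or ileum replicate 3, none higher after normexp and 4 lower with centring on spike-ins; Dclk1 read -1.62 to -1.32 in colon and -1.89 to -1.27 in ileum (adjusted p = 0.663), and Sucnr1 was lower (-1.91 ± 0.41).

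Crypt and Wnt genes did not move as a group, with 8 of 25 stem cell markers and Wnt targets higher, 6 lower and a median of 0.04 that turned negative after normexp background correction (-0.05). Leaving out ileum replicate 4 left 5 higher. Olfm4, a stem cell marker of the small intestine, was at least 81.6-fold higher in ileum, with no colon array well above background. Lgr5, the stem cell receptor for R-spondins, read -0.49, -0.09 and -0.12 in ileum and -1.14, -1.83 and -1.78 in colon (-1.35 ± 0.20), Smoc2 differed by -1.22 ± 0.14, and the Wnt targets Axin2 and Sp5 by -1.93 ± 0.27 and -2.69 ± 0.41. Ascl2 did not pass (0.28 ± 0.31, adjusted p = 0.515), and Prom1 and Lrig1 were higher (1.53 ± 0.35 and 0.75 ± 0.15). Wnt3, the ligand that Paneth cells supply to stem cells, read -0.74, 0.03 and -0.41 in ileum and -7.72, -5.74 and -6.63 in colon, where 1 array was well above background (-6.32 ± 0.38, adjusted p = 5.92e-07). Of 33 Wnt, BMP and hedgehog ligands and antagonists 6 were higher and 10 lower. Sfrp2, well above background on 1 ileum array, was higher (2.95 ± 0.45) and Grem1 was lower (-1.1 ± 0.29). Bmp7 was lower as well (-1.22 ± 0.26). At cell junctions Cldn8 was higher (2.33 ± 0.26) and Cldn15, a pore-forming claudin, lower (-1.30 ± 0.23), while Cldn3 overlapped (adjusted p = 0.417); of 20 tight junction genes 2 were higher and 4 lower, or 2 lower without colon replicate 1 or after quantile normalization and 1 with centring on spike-ins. Krt20, of differentiated epithelium, was slightly lower (-0.83 ± 0.11).

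Antigen presentation and T cell genes were lower in colon. In bulk tissue, fewer cells of a type and less RNA per cell cannot be told apart. Of 10 tested MHC class II genes 8 were lower and none higher, with a median of -3.52. H2-Aa, an alpha chain, measured 4.01, 4.67 and 4.51 in ileum and -0.12, 1.07 and 0.19 in colon (-4.02 ± 0.35, adjusted p = 1.02e-05). The invariant chain Cd74, H2-Ab1 and H2-Eb1 differed by -3.78 ± 0.36, -3.49 ± 0.32 and -3.08 ± 0.30, and Ciita, their transactivator, by -2.98 ± 0.49. H2-Oa, a class II chaperone of B cells, overlapped (0.00 ± 1.03, adjusted p = 0.999). Of 32 interferon-response genes 15 were lower and none higher (median -0.94): the immunoproteasome genes Psmb8 and Psmb9 differed by -2.83 ± 0.26 and -2.69 ± 0.23, the peptide transporter Tap1 by -2.69 ± 0.22, Igtp by -2.23 ± 0.29 and Zbp1 by -2.27 ± 0.44, whereas Isg15 did not pass (-1.17 ± 0.63, adjusted p = 0.169).

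T cell and intraepithelial lymphocyte markers were lower in colon for 17 of 22 tested genes, with a median of -2.0; the 1 higher call was lost without any 1 of the 6 flox arrays. Gzma, a granzyme of cytotoxic lymphocytes, read 2.50, 2.07 and 3.20 in ileum and -2.59, -2.93 and -2.26 in colon (-5.19 ± 0.65, adjusted p = 0.000129). Gzmb, Cd8a, Cd3g and Itgae differed by -4.30 ± 0.55, -3.04 ± 0.60, -2.66 ± 0.41 and -1.77 ± 0.35. Ccl25, the chemokine that small intestinal epithelium makes for gut-homing T cells, read 6.70, 7.54 and 7.44 in ileum and 0.53, 1.27 and 0.75 in colon (-6.37 ± 0.26). A second Ccl25 probe gave -6.48, and the third, dimmer, gave 0.34. Its receptor Ccr9 differed by -2.47 ± 0.33, and the T cell chemokines Ccl5 and Cxcl9 by -3.91 ± 0.51 and -4.34 ± 0.40. Summed over the 22 T cell markers, the scaled signal was 2.36 to 2.91 on colon arrays and 4.29 to 4.99 on ileum arrays (log2). Macrophage and myeloid markers were lower for 12 of 18 and higher for none, with a median of -1.04, and their summed signal was 3.83 to 4.17 in colon and 4.87 to 5.24 in ileum. Csf1r, the receptor that macrophages depend on, differed by -1.32 ± 0.21, Adgre1 (F4/80) by -1.12 ± 0.17 and C1qa by -1.08 ± 0.24. The part of these cells in the class II and interferon differences was not tested. Of 18 B and plasma cell markers 1 was higher and 4 lower, with none lower without colon replicate 1 or ileum replicate 4 and 2 without colon replicate 3, ileum replicate 1 or with centring on spike-ins; Ms4a1, which encodes CD20, did not pass (adjusted p = 0.598). Of 22 cytokine and NF-kB genes 9 were lower; Il18, an epithelial cytokine, was higher in colon (2.26 ± 0.36). Of 22 genes of microbial sensing 5 were higher and 7 lower, or 2 higher without colon replicate 3, colon replicate 4 or ileum replicate 3, 3 higher without ileum replicate 4, and 4 lower with centring on spike-ins. The flagellin sensor Naip5 and its partner Nlrc4 were lower (-1.63 ± 0.20 and -0.84 ± 0.10), and Tlr1 higher (1.68 ± 0.29).

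**Figure D4:**
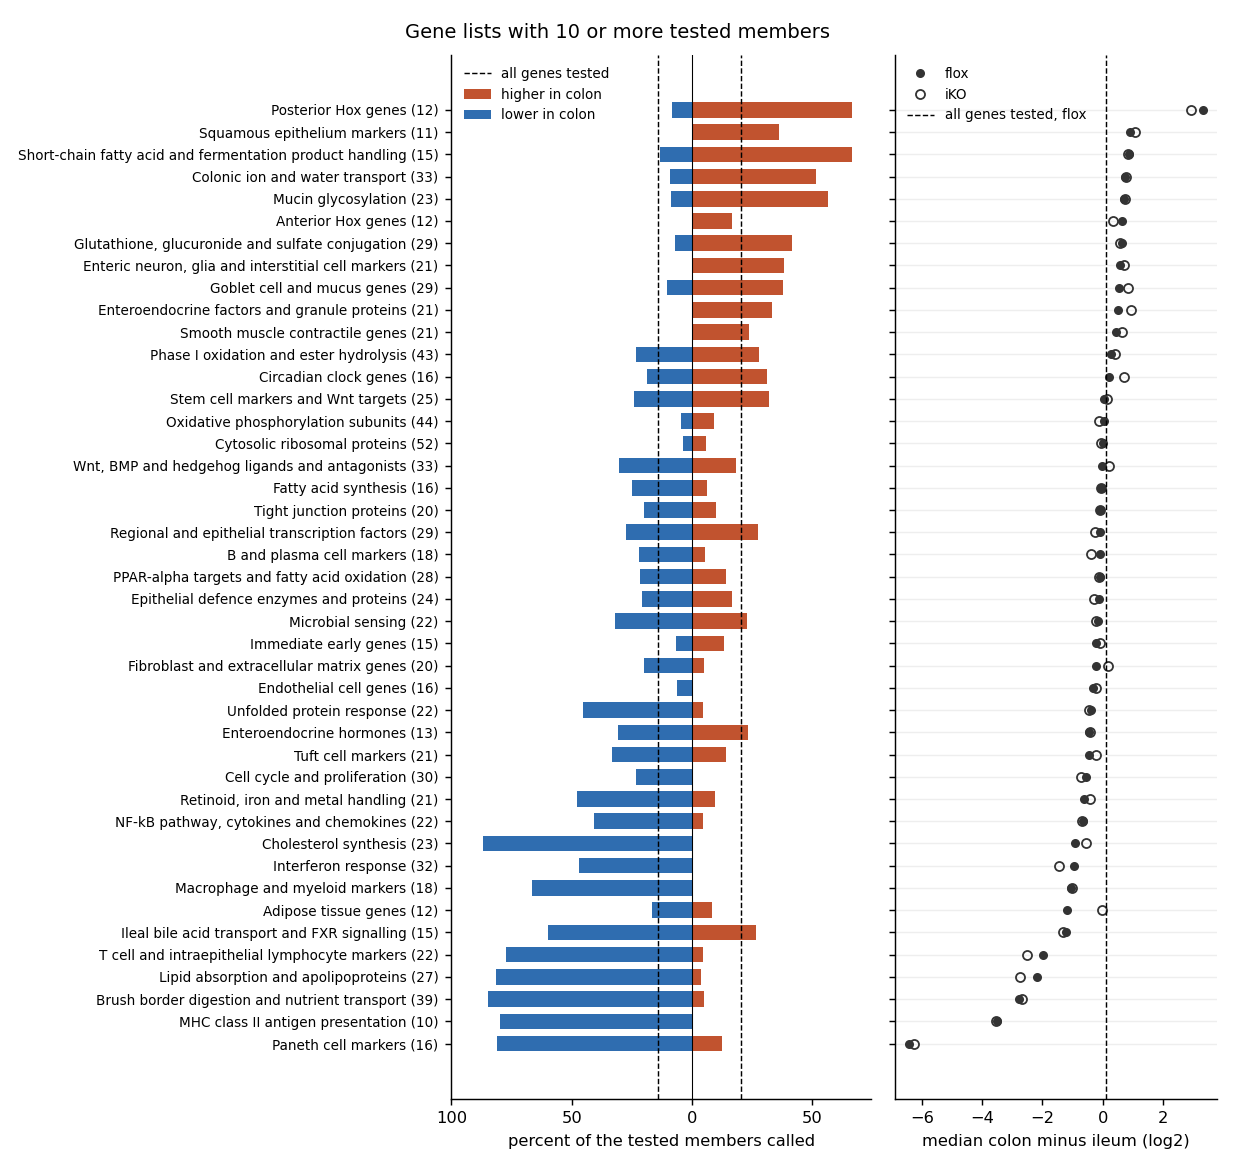
Left, percent of the tested members of each gene list called higher (to the right of 0) or lower in colon (to the left), with the shares over all genes, 20.5% and 14%, as dashed lines and the tested number in brackets. Right, median colon minus ileum difference (log2) of each list in flox and in iKO samples, with 0.09 for all genes dashed. Paneth cell, MHC class II, brush border and lipid absorption lists lie lowest. Posterior HOX genes lie highest, and most of them entered the test through the colon arrays alone.

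Cholesterol synthesis was lower in colon for 20 of 23 tested genes and higher for none, with a median of -0.93. Hmgcs1, which makes HMG-CoA, measured 5.60, 5.90 and 5.76 in ileum and 5.13, 4.5 and 3.70 in colon (-1.31 ± 0.27, adjusted p = 0.00311). Cyp51, lanosterol demethylase, read 1.51, 1.94 and 1.42 in ileum and 0.92, 0.41 and -0.11 in colon (-1.22 ± 0.22). In both genes the colon arrays spread more widely than the ileum arrays, and the tissues did not overlap. Dhcr7 overlapped (adjusted p = 0.502). Fatty acid synthesis did not share the shift, with 1 of 16 higher and 4 lower; 2 were higher without colon replicate 1 or ileum replicate 1, and 2 lower with centring on spike-ins or without any single array but colon replicate 1: Fasn overlapped (-0.04 ± 0.21, adjusted p = 0.897), Acly was higher (0.91 ± 0.16), and Mlxipl, a sugar-responsive factor, was lower (-2.04 ± 0.24).

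Drug and toxin metabolism differed by enzyme. Of 43 phase I genes 12 were higher and 10 lower. Adh1, an alcohol dehydrogenase, measured 6.74, 6.43 and 6.42 in colon and 2.19, 2.42 and 2.36 in ileum, an 18.5-fold difference (4.21 ± 0.27, adjusted p = 1.16e-06). Cyp2d34 was higher by 6.83 ± 1.35, and by 8.60 without ileum replicate 1. Cyp4f14 was lower (-2.03 ± 0.23), as was Cyp3a25 (-5.78 ± 1.07, and -6.74 without ileum replicate 1). Conjugation enzymes were higher for 12 of 29 and lower for 2 (median 0.63), among them the glutathione transferases Gstm1, Gstm3 and Gstk1 (1.47 ± 0.26, 1.58 ± 0.26 and 1.59 ± 0.28) and the sulfotransferase Sult1a1 (3.73 ± 0.89, and 4.85 without ileum replicate 1). Sult2b1, which sulfates sterols, was lower (-2.18 ± 0.26), as was the aldose reductase Akr1b7 (-3.34 ± 0.58, and -4.07 without that array). The targets of the fatty acid receptor PPAR-alpha showed no common direction, with 4 of 28 higher and 6 lower, or 2 higher without colon replicate 3, colon replicate 4, ileum replicate 3 or ileum replicate 4, 3 lower without colon replicate 1, and 8 higher after normexp; Vnn1 and Cyp4a10 were lower (-3.01 ± 0.63 and -1.79 ± 0.27). Retinoid, iron and metal genes were lower for 10 of 21, and for 6 without ileum replicate 3; the iron exporter Slc40a1 was higher (1.3 ± 0.21).

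Other layers of the gut wall were read through their markers. Over all genes tested, 20.5% were called higher and 14% lower. Of 21 smooth muscle genes 5 were higher and none lower, or 3 higher without colon replicate 4, 9 after quantile normalization and 8 with the percentile taken over probes well above background on all 14 arrays; their median was 0.44 and their summed signal 9.66 to 9.86 in colon and 9.33 to 9.5 in ileum. Cnn1 and Tagln were higher by 1.03 ± 0.23 and 0.85 ± 0.21, and Myh11 did not pass (0.55 ± 0.22, adjusted p = 0.0714). Neuron, glia and interstitial cell markers were higher for 8 of 21, or 5 without colon replicate 4; Ano1, the chloride channel of pacemaker cells that some epithelia also make, read 2.24, 1.90 and 1.66 in colon and -0.71, -1.06 and -1.0 in ileum (2.86 ± 0.25). Fibroblast genes were higher for 1 of 20 (Postn, 1.57 ± 0.29) and lower for 4; the lower count was 1 without colon replicate 1, 2 without ileum replicate 1 and 0 with centring on spike-ins, and the higher count 3 without ileum replicate 1 or after normexp. Dcn overlapped (adjusted p = 0.451). Of 16 endothelial genes 1 was lower, or 0 to 3 over the arrays left out, and Pecam1 and Cdh5 did not pass (adjusted p = 0.169 and 0.384). Adipose genes were highest on ileum replicate 1: Adipoq read 3.35 on it against 1.18 and 1.24, and -0.38 to 0.78 in colon (-1.73 ± 0.80, adjusted p = 0.116, and -1.02 without that array, adjusted p = 0.366). Fabp4 read 6.34 on it against 4.16 and 4.64 (-1.25 in all, and -0.60 without it). Pparg, a fat cell factor also made by colonocytes, was higher in colon (2.06 ± 0.45). Markers of squamous epithelium, which lines the anal canal, were higher for 4 of 11 and lower for none. Krt14 read -0.71, -2.57 and -1.94 in colon, above -4.74, -3.03 and -4.12 in ileum (2.22 ± 0.55). Its probe was well above background on 1 ileum array. Krt5 overlapped (adjusted p = 0.864).

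Housekeeping lists had medians near 0, and their counts depended on the scaling. Of 52 cytosolic ribosomal protein genes 3 were higher and 2 lower, and of 44 oxidative phosphorylation genes 4 and 2, with medians of 0.01 and 0.04; after quantile normalization the medians were 0.21 and 0.19, with 25 ribosomal genes higher and 0 lower and 12 oxidative phosphorylation genes higher and 1 lower. Leaving out 1 array took the higher counts as low as 0, without colon replicate 1 or ileum replicate 1, for ribosomal genes and 1, without colon replicate 3 or ileum replicate 3, for the other list. Cox4i1 read 7.36 to 7.57 in colon and 7.43 to 7.48 in ileum. Cell cycle genes were lower for 7 of 30 and higher for none (median -0.56), but the count ran from 1 to 17 when a flox array was left out, with 17 without colon replicate 1 and 1 without colon replicate 3, colon replicate 4, ileum replicate 1 or ileum replicate 4, and it was 0 with centring on spike-ins or with the 6 flox arrays fitted alone. Unfolded protein response genes were lower for 10 of 22, and for 5 after centring on spike-ins; Sdf2l1 differed by -1.07 ± 0.17. Clock genes were higher for 5 of 16 (3 without ileum replicate 4) and lower for 3. Dbp and Nr1d1, which peak together, were higher (2.16 ± 0.40 and 1.83 ± 0.40), and Arntl and Nfil3, which peak in the opposite phase, were lower (-0.99 ± 0.22 and -2.0 ± 0.35). Per2 did not pass (adjusted p = 0.236), and the hour of tissue collection is not given in the sources used here.

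Several of the steepest differences lay outside the lists. Sycn, syncollin, a granule protein best known from the exocrine pancreas, measured 8.16, 7.89 and 7.92 in colon and 2.12, -0.04 and 0.56 in ileum, a 139-fold difference (7.11 ± 0.52, and 7.73 without ileum replicate 1). The pancreatic enzyme list did not follow it: Cela1, an elastase that gut epithelium also makes, was the 1 higher gene of 7 tested (3.8 ± 0.54). Tgm3, a transglutaminase that does belong to the epithelial defence list, was at least 140-fold higher. Nxpe2 was at least 69.5-fold higher and Ccn3, a matricellular protein, at least 33.9-fold. In each of these genes ileum was not well above background. Thbs4, a thrombospondin, was higher by 5.26 ± 0.41 and Anxa8 by 5.61 ± 0.68. Slc37a2, a sugar phosphate exchanger, was higher by 4.90 ± 1.5 (adjusted p = 0.0247), a call lost without colon replicate 3, ileum replicate 3 or ileum replicate 4 (adjusted p up to 0.0974), and by 6.70 without ileum replicate 1. In ileum, Prm1, a sperm chromatin protein, read 7.28 to 8.09 against -4.02 to -3.53 in colon (-11.46 ± 0.20), but a second probe gave 0.93, so the transcript behind the bright probe is uncertain. Nos2, the inducible nitric oxide synthase, and Tnfaip8l3 were at least 8.93- and 12.4-fold higher in ileum, with colon not well above background. Nos2 is also a member of the epithelial defence list. Lhx5, a homeobox gene, was at least 9.64-fold higher in ileum, and lost its call under the common floor (-1.05, adjusted p = 0.0528).

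The iKO samples, which share no array with the flox comparison but the same array runs, showed close to the same differences. Among them 4721 genes were higher in colon (24.8%) and 3771 lower (19.8%). Of the genes called in flox, 98.3% of the higher and 98.2% of the lower had the same sign in iKO; 3041 (78.1%) and 2287 (86.1%) were called the same way, and 1 and 3 the opposite way. Across the 14917 genes well above background on all 6 flox arrays, the differences in the 2 genotypes had a Pearson r of 0.911 and a Spearman rho of 0.854; these are correlations across genes, which are not independent replicates. Anpep differed by -8.20 in iKO, Fabp6 by -7.09, Hoxb13 by 9.70, Scnn1a by 1.95 and H2-Aa by -3.96, all near their flox values. Other named genes lay further apart: Itln1 differed by -8.90 in flox and -6.30 in iKO, Treh by -7.48 and -5.22, and Abcg5 by -3.25 and -5.37. Slc37a2 and Slc46a1, called in flox, were not called by limma in iKO (adjusted p = 0.0519 and 0.0638). Against the flox ileum of young mice, which shares the array run of the old ileum, every old colon array lay beyond every young ileum array for 2121 of the 2650 higher genes measured on all 6 arrays (80.0%) and 2126 of the 2540 lower ones (83.7%). These genes were called with the same colon arrays, so high shares were partly built in. The share over all 14917 genes was not computed. Against the young ileum mean the sign was opposite for 86 of the higher and 43 of the lower genes. Among these, Dbp read 3.50 ± 1.37 (SD, n = 4) in young ileum, 0.91 in old ileum and 3.07 in old colon on average, Rraga 1.96 ± 0.15, -0.66 and 1.09, and Cd68, a macrophage marker, -2.41 ± 0.42, -1.38 and -2.39; the last 2 were chosen after their values were seen.

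**Figure D5:**
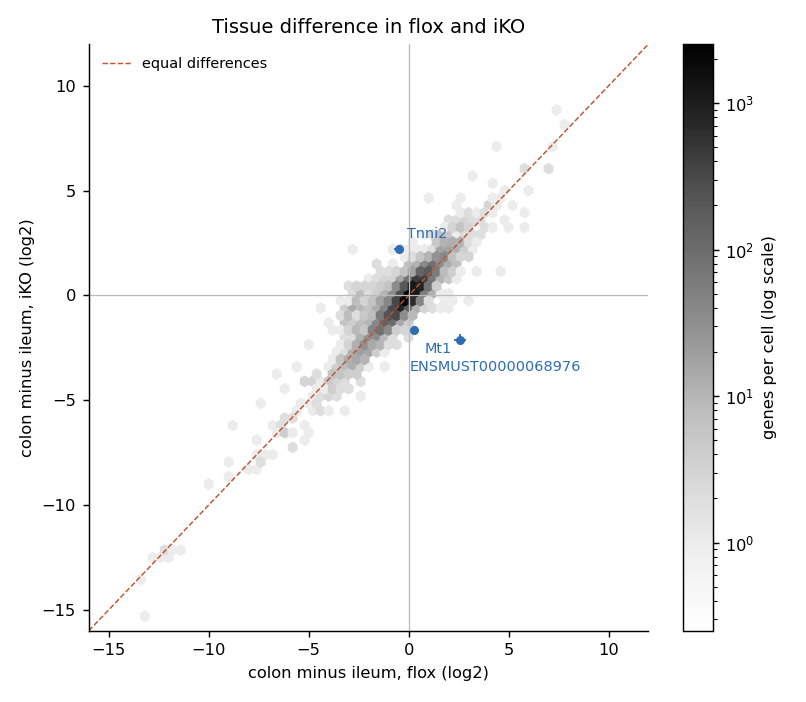
Colon minus ileum difference (log2) in flox (horizontal) and in iKO (vertical) for 14917 genes well above background on all 6 flox arrays, as counts per hexagon on a log grey scale, with the 3 genes whose differences differ by genotype in blue (bars are SE). The cloud follows the dashed line of equal differences (r = 0.911), and Mt1, Tnni2 and ENSMUST00000068976 lie off it.

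The tissue difference itself differed by genotype for 3 genes (0.0158%), while 1167 had an unadjusted p under 0.05; none of the 3 calls held with the replicate block. Mt1, a metallothionein, read 4.01, 3.07 and 3.47 in flox colon and 3.09, 3.30 and 3.28 in flox ileum, with a difference of 0.29 ± 0.19 in flox and -1.66 ± 0.17 in iKO. The difference between them was -1.95 ± 0.25 (adjusted p = 0.0375). Its call was lost without any of 12 of the 14 arrays, all but colon flox replicates 1 and 3 (adjusted p 0.0615 to 0.148), and with centring on spike-ins (0.219), quantile normalization (0.073), the mean over probes (0.0616) or no filter on dim probes (0.0511). Tnni2, a troponin of fast skeletal muscle, differed by -0.50 ± 0.23 in flox and 2.22 ± 0.20 in iKO (2.72 ± 0.31 between them, adjusted p = 0.0127). Its call was lost without ileum flox replicate 1, ileum flox replicate 4, colon flox replicate 3, colon flox replicate 4 or colon iKO replicate 1 (adjusted p 0.0515 to 0.0761). The transcript ENSMUST00000068976 was well above background on 3 of 3 flox colon arrays and on none of the flox ileum, iKO colon or iKO ileum arrays. Its fitted difference between genotypes (-4.68 ± 0.42, adjusted p = 0.00208) took in these arrays below detection, and under the common floor it was -0.39 (adjusted p = 0.786).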

How the data were processed

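Processed signal intensities were taken from the scanner text files as deposited; per the file headers they were extracted with Agilent Feature Extraction 9.5.3.1, which subtracts background, from 1-colour (Cy3) arrays, and the submitters' processing notes name version 9.5. RNA was total RNA purified with TRIzol and an RNeasy kit, per the labels' protocols. Values were scaled as log2 minus each array's 75th percentile. Probes were named through RefSeq on GRCm38.p6 (22951 by accession, 6659 by symbol, 3109 by synonym, 8455 by the file's own name), and the probe with the highest mean signal stood for its gene. A gene entered the test if all 3 arrays of at least 1 flox tissue read that probe well above background; 120 genes with outlier-flagged spots were left out.

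One limma 3.58.1 model (R 4.3.3, lmFit and eBayes) covered the 14 arrays of 24-month mice (3, 3, 4 and 4 per group), with Benjamini-Hochberg adjustment over all tested genes and calls at 0.05. A fold is "at least" where a group had no array well above background, set against the lowest signal so called on each array, or where the brighter group was saturated on every array. The precision is limited by the number of arrays. On simulated data for the flox comparison over 19018 genes, 100 genes were shifted by 1 log2 unit, 100 by 2 and the rest not at all. Of these shifts 51 and 89 were called, with 9 false calls. Far fewer genes were shifted than were called in the data. These counts therefore do not give the power or the number of false calls of the real comparison.

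Members and gene lists (48 lists, 1012 tested genes) were chosen with earlier results of these data known, and lists are described by counts and medians with no set test. Named genes are Sirt1, the 12 largest differences each way among genes measured on all 6 arrays, the 12 largest bounds each way, and list members; members named as called were mostly taken from those whose call held without each flox array. Defensin copies are given by a few members. Figures used matplotlib 3.10.9. Alternatives covered scaling, background, filter, probes, spread, slide, replicate block and leaving out arrays. The young knockout arrays and the submitters' value table were not used here. A few genes are not reported here.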

Additional observations from a re-analysis of the deposited data

Results flagged for a closer look

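Ileum iKO replicate 2 stood apart from the 3 other ileum iKO arrays in the same genes as ileum flox replicate 1: Car1 measured 7.79, Aqp8 5.56 and Car2 2.82, each far from the next value of its group. In young flox ileum, Car1 measured 2.63 on replicate 2, and on replicate 3 Car2 measured -1.73 and Hoxb13 -2.18, away from the other arrays of the group. By chance the rule behind these picks about 1 in 20 groups. Groups of 3 were not tested, so ileum flox replicate 1 itself was judged only against the other arrays. The tissue difference differed between genotypes, iKO minus flox, by -1.95 for Mt1, 2.72 for Tnni2 and -4.68 for ENSMUST00000068976; the last was well above background only on the 3 flox colon arrays, and its difference under the common floor was -0.39.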

How the results depend on the processing

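The number of genes lower in flox colon was 1529 with centring on spike-ins and 7020 with no filter on dim probes, and in iKO 1818 and 8700; without the filter, probes near the different backgrounds of the array runs enter the test. Higher genes made up 35.1% of flox calls with no filter. The other settings left the flox and iKO counts within 1.5 times the values given above. Leaving out 1 of the 14 arrays gave 2895 to 3899 higher and 2001 to 2653 lower genes in flox, 3876 to 4846 and 3255 to 3856 in iKO, and 1 to 3 genes whose difference depended on genotype. That last count was 9 with array weights, 9 with the common floor and 0 with the replicate block, under which limma gave 1136 genes at an unadjusted p under 0.05; the cause was not tested.

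With genotype and replicate number as a block (replicate block), 3160 genes were higher and 2258 lower in flox colon. The numbers are not taken as pairs because the labels do not state a pairing. Deviations of same-numbered flox ileum and colon arrays correlated at 0.02, -0.04 and 0.12. With 3 arrays per tissue these values cannot decide whether such arrays share a mouse. With the slide as a random block (consensus correlation 0.026) the counts were 3838 and 2627. Of 209 called genes followed singly through the settings, 199 kept call and direction in every alternative other than leaving out arrays. Without each of the 14 arrays 205 did, and none changed direction. Most of these genes were chosen because their call held without each flox array, so the 205 was largely built in. Over all genes tested, 748 of 3892 higher and 346 of 2656 lower calls were lost without ileum flox replicate 1. The median over all genes moved from 0.09 to 0.23 with centring on spike-ins, to -0.04 with normexp and to -0.11 with no filter. Signal over background limits the genes dim in ileum most.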
